A study of Mus musculus with 8 samples.

Results

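The insulin-like growth factor (IGF) system was followed in mouse kidney through 10 genes: the ligand genes Igf1 and Igf2, the receptor gene Igf1r, and the 7 binding protein genes Igfbp1 to Igfbp7. Members were taken by name, as every non-control probe that the array annotation assigns to one of them, whatever its value. They were 10 of the 34763 gene names and 16 of the 55681 probes on the array. CD-1 mice, an outbred laboratory stock, received tacrolimus at 1 mg/kg/d for 28 days (TAC, 4 samples) or physiological serum (CTL, 4 samples). Tacrolimus inhibits the phosphatase calcineurin, is given against transplant rejection and can damage the kidney, the setting named in the title of the series. Total RNA of whole kidney was hybridised to 1-colour Agilent arrays, 1 array per sample. The age and sex of the mice are not given in the labels used here, and the replicates are numbered without naming animals, so each p-value reflects only how much these samples varied, which may be technical in part.

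IGF1 and IGF2 are secreted growth factors that signal through the tyrosine kinase receptor IGF1R, insulin receptor substrate proteins and the PI3K and AKT kinases. Most of the IGF in body fluids is held by binding proteins, which prolong its life and limit its access to the receptor, and proteases that cut the binding proteins release it again. In the kidney the system is known for its effects on filtration, on tubular growth and on growth of the remaining organ after loss of nephrons.

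Each value below is the log2 of the background-subtracted signal of a probe minus the log2 of the 75th percentile of its array, so a difference of 1 between groups is 2-fold. A probe was tested if its signal was well above background, by the scanner software's own call, on at least 4 of the 8 arrays. A gene is represented by its brightest tested probe, 25127 genes were tested with limma's moderated test, and a gene was called at an adjusted p under 0.05 after Benjamini-Hochberg adjustment over all of them. Further probes of a gene take their p from the same test over all 36493 tested probes. The share of spots well above background ran from 64.0% to 69.8% across the arrays, none was saturated, and pairs of arrays correlated between 0.982 and 0.993 across genes. Precision is limited by having 4 arrays in each group. The control arrays lay in 1 row of the slide and the tacrolimus arrays in the other, so the row and the treatment cannot be told apart.

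None of the 9 tested members was called, beside 57 of all 25127 genes (0.227%; 0.187% higher with tacrolimus and 0.0398% lower). At the brightest probe of each gene, Igfbp6 had the largest difference, 3.22-fold higher in the tacrolimus group (95% confidence interval 1.54 to 6.75), and missed the threshold (limma, adjusted p = 0.161). At these probes it was also the only member with an unadjusted p under 0.05, 1 of 9 beside 15.5% of all genes (7.04% higher, 8.42% lower). The ligand gene Igf1 gave different answers at its 5 probes: the brightest was lower on average with tacrolimus, 3 others were higher, and none was called. Igf1r, Igfbp3, Igfbp4, Igfbp5 and Igfbp7 had differences between -0.11 and 0.064, Igfbp1 and Igfbp2 had positive differences smaller than their intervals, and Igf2 was too dim to test. For no member, at any probe, did the values of the groups fail to overlap, while they failed to overlap for 10.1% of all genes and 9.3% of all probes. The median difference of the 9 members was -0.0068, with 4 positive and 5 negative, beside -0.054 over all genes. As a check of the labelled tissue, all 9 markers of kidney tubule and podocyte, among them Umod and Lrp2, were tested, and none was called (summed signal 711 to 826 times the 75th percentile in controls and 722 to 809 with tacrolimus). In RNA of a whole organ, fewer cells of a type and less RNA per cell cannot be told apart.

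**Figure D1:**
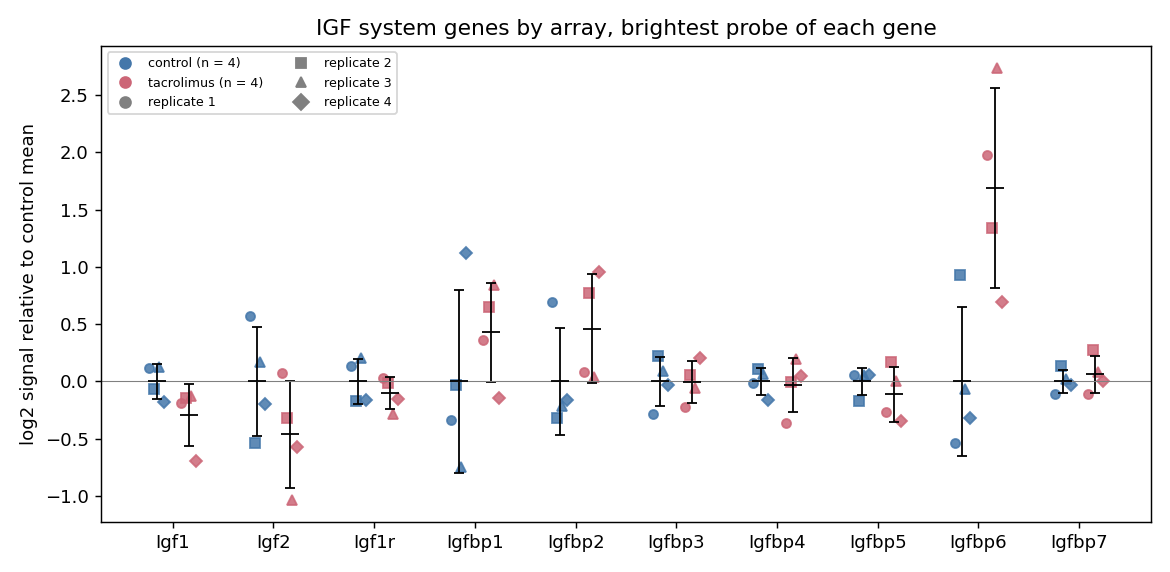
Log2 signal of each IGF system gene on each of the 8 arrays, at its brightest probe (for Igf2 its only one, too dim to test), relative to the mean of the 4 control arrays (blue, control; red, tacrolimus; the shape gives the replicate number; horizontal bar and whiskers, mean ± SD). Igfbp6 has 3 tacrolimus arrays above all control arrays, and in every gene the colours overlap.

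Igf1 encodes the growth factor IGF1, which is made in the kidney as well as in the liver. The array holds 5 probes for it, and a stretch of each is printed, 5′ to 3′ and from the array files, since the result turned on which probe was read. The capitals mark bases shared by the pair of probes that overlap.
Igf1 A_55_P2085979: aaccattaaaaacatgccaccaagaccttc
Igf1 A_55_P2085984: CATTACAAAGATGGGCATTTcccccaatga
Igf1 A_55_P2031631: agtccaataaCATTACAAAGATGGGCATTT
Igf1 A_55_P2031636: agaaatgtaaatggaataagaggtcagctg
Igf1 A_55_P2085974: ctcctgattgtatttgaagtggttattcaa
On mm9, the build of the array annotation, A_55_P2085979 lies on chromosome 10 from 87378456 to 87378515, and the other 4 lie 15105, 15125, 17468 and 21125 bases further along the gene, the last from 87399581 to 87399640. The annotation gives A_55_P2085979 to another transcript of Igf1 than the other 4. Exon and UTR annotation of mm9 was not used here. A_55_P2085984 and A_55_P2031631 share 40 of their 60 bases and are not independent measurements.

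At the brightest Igf1 probe, A_55_P2085979, the control arrays read 1.02, 0.84, 1.03 and 0.72 and the tacrolimus arrays 0.71, 0.76, 0.78 and 0.21 (replicates 1 to 4 in each). All 4 tacrolimus values were below the control mean, but 2 of them exceeded the lowest control value. The difference was -0.29 ± 0.15 (SE, n = 4 per group; 95% interval -0.63 to 0.049; limma, adjusted p = 0.376; exact two-sided permutation p = 0.0857, where the smallest p that 4 against 4 arrays allow is 0.0286). Without tacrolimus replicate 4, the lowest array, it was -0.16.

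At A_55_P2085984 the control arrays read -1.98, -1.97, -2.48 and -1.63 and the tacrolimus arrays -0.89, -1.50, -1.94 and -1.14. Here 3 of the 4 tacrolimus arrays were above every control array, and tacrolimus replicate 3 was not. The difference was 0.65 ± 0.25 (SE, n = 4 per group; 95% interval 0.066 to 1.23), or 1.57-fold, and it was not called (limma, adjusted p = 0.311 over all probes; exact permutation p = 0.0571).

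A_55_P2085974, the probe furthest along the gene, read -1.54, -1.61, -2.11 and -0.94 in controls and -0.34, -0.97, -1.47 and -0.37 with tacrolimus. Tacrolimus replicates 1 and 4 were above every control array, and control replicate 4 was above tacrolimus replicates 2 and 3. Its difference was 0.76 ± 0.31 (SE, n = 4 per group; 95% interval 0.048 to 1.48; limma, adjusted p = 0.326). A_55_P2031631, which overlaps A_55_P2085984, differed by 0.55 ± 0.27 (limma, adjusted p = 0.382). At A_55_P2031636 the groups had nearly the same mean, -4.30 in controls and -4.31 with tacrolimus (95% interval of the difference -0.34 to 0.33).

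Over the 8 arrays the 3 Igf1 probes with positive differences correlated with each other between 0.986 and 0.990 (Pearson r), and each correlated with the brightest probe between -0.79 and -0.73. These coefficients describe 8 arrays in 2 groups, and the overlapping probes share sequence. Relative to the brightest probe on the same array, A_55_P2085974 was 1.05 higher in the tacrolimus mean than in the control mean, A_55_P2085984 0.94 higher and A_55_P2031631 0.84 higher. The array values of these ratios overlapped between the groups, from -3.14 to -1.66 in controls and from -2.25 to -0.58 with tacrolimus for A_55_P2085974. This comparison of probes was chosen after their values were seen and was not tested. Averaging the 5 probes turned the sign of the Igf1 difference to 0.33 (limma, adjusted p = 0.415).

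**Figure D2:**
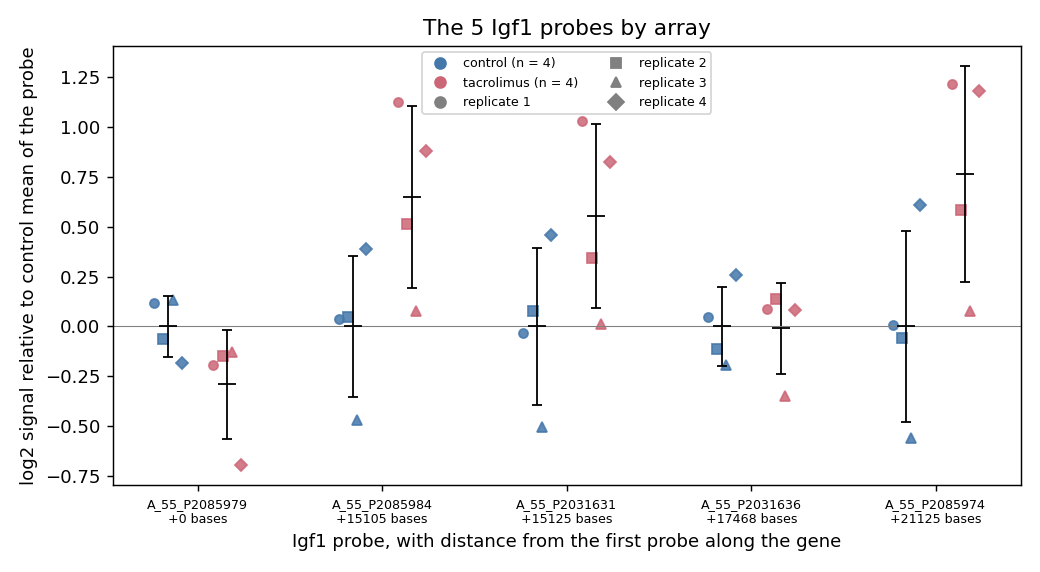
Log2 signal of the 5 Igf1 probes on each array, relative to the control mean of the same probe, in order along the gene with the distance of each probe from the first in bases (blue, control; red, tacrolimus; mean ± SD, n = 4). The difference between the tacrolimus and control means is -0.29 at the first probe and 0.65, 0.55 and 0.76 at the probes 15105, 15125 and 21125 bases away.

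Igf2, the ligand that dominates before birth, is imprinted and low in most adult mouse tissues. Its single probe was well above background on 2 control arrays and 1 tacrolimus array and was not tested. The control arrays read -5.03, -6.14, -5.42 and -5.80 and the tacrolimus arrays -5.52, -5.92, -6.63 and -6.17. With 5 of the 8 arrays not well above background, these values have no useful order. H19, the noncoding RNA gene next to Igf2 that is expressed from the other parental copy, was well above background on all 8 arrays and differed by -0.26 ± 0.17 (SE, n = 4 per group; limma, adjusted p = 0.493).

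Igf1r encodes the receptor that carries most of the signal of both ligands. It read 4.12, 3.81, 4.19 and 3.82 in controls and 4.01, 3.97, 3.70 and 3.84 with tacrolimus. The groups overlapped along most of their range, and the difference was -0.10 ± 0.12 (SE, n = 4 per group; 95% interval -0.39 to 0.18; limma, adjusted p = 0.708). As a ratio of tacrolimus to control, that interval runs from 0.76 to 1.13. The related receptors were Igf2r, which carries IGF2 to the lysosome, the insulin receptor gene Insr, and Insrr, which encodes a receptor sensitive to alkaline pH in the kidney. None of the 3 was called, and their differences were -0.020, -0.086 and 0.18.

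Igfbp6 encodes a binding protein that prefers IGF2 to IGF1. Its single probe lies on chromosome 15 from 101979852 to 101979911 on mm9, and a stretch of it is printed because it measured the largest difference among the brightest probes of the members.
Igfbp6 A_66_P139546: ctgtcacccttgggcctttacacagctagt
The control arrays read -3.05, -1.58, -2.58 and -2.83 and the tacrolimus arrays -0.53, -1.17, 0.23 and -1.81. Replicates 1, 2 and 3 of the tacrolimus group were above every control array, and replicate 4 was above the control mean but below control replicate 2. The means were -2.51 ± 0.65 and -0.82 ± 0.87 (SD, n = 4 each), a difference of 1.69 ± 0.47 (SE; limma, adjusted p = 0.161; exact permutation p = 0.0571). The absolute difference was larger than that of 99.4% of the genes tested, and the spread within groups was larger than that of 96.3%. Leaving out single arrays gave differences from 1.34, without tacrolimus replicate 3, to 2.02, without tacrolimus replicate 4. Over all 19 alternative settings the difference stayed positive, the adjusted p ran from 0.106 to 0.333, and Igfbp6 was called under none.

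Marker levels of other cell types are given for the same arrays, and their part in the Igfbp6 values was not tested. All 7 fibroblast markers were higher on average with tacrolimus. For 6 of them the unadjusted p was under 0.05 (limma), beside 15.5% of all genes. Only 1 was called (Col1a2, a collagen chain gene), beside 0.227% of all genes. The groups did not overlap for 5, beside 10.1% of all genes. The median difference of the 7 markers was 0.97. Their summed signal, in multiples of the 75th percentile of the array, ran from 25.9 to 29.4 in controls and was 54.1, 66.9, 41.4 and 58.0 on tacrolimus arrays 1 to 4. Every tacrolimus array lay above every control array in this sum. Within the tacrolimus group, replicate 3 had the lowest sum and the highest Igfbp6 value. All 7 macrophage markers also had positive differences (median 1.32), and none was called. For 6 of them the unadjusted p was under 0.05 and the groups did not overlap, beside 15.5% and 10.1% of all genes. Their mean log2 level relative to the control mean ran from -0.31 to 0.33 in controls and from 0.73 to 1.63 with tacrolimus, while their summed signal, most of it from Csf1r, overlapped (29.4 to 36.4 and 35.2 to 45.1). The 6 tested of 7 adipocyte markers had a median difference of 3.40 with none called, and their sum, on most arrays largely Fabp4, was 45.0 on tacrolimus replicate 4 against 10.6 to 16.6 on the other 7 arrays. Their mean log2 level relative to the control mean was -0.47, 2.19, -0.84 and -0.88 in controls and 2.93, 2.09, 2.20 and 5.38 with tacrolimus, so control replicate 2 lay among the tacrolimus arrays. Adipoq, Plin1, Cidec and Retn were well above background on 1, 0, 2 and 3 control arrays and on all 4 tacrolimus arrays. Plin1 thus passed the filter only through the tacrolimus group, and the median and this mean take in control values near background. Of the 6 tested genes, 5 had an unadjusted p under 0.05 (limma), beside 15.5% of all genes. Lep, which encodes the fat cell hormone leptin, stayed near background on all 8 arrays. Control replicate 2 was the highest control array in this mean and in Igfbp6, while tacrolimus replicate 4 was the highest in this mean and the lowest of its group in Igfbp6. Leaving out both of these arrays gave an Igfbp6 difference of 2.33. As they were the highest control and the lowest tacrolimus array in Igfbp6 itself, leaving them out raises the difference whatever the markers do. Urothelium markers summed to 1.59 and 4.997 on tacrolimus replicates 1 and 4 and to 0.42 to 0.59 on the other 6 arrays, with none of 5 tested genes called. Among smooth muscle and pericyte markers 5 of 6 were positive (median 0.25, summed signal 15.3 to 17.3 in controls and 16.99 to 22.2 with tacrolimus), and among endothelial markers 1 of 8 (median -0.072, 39.5 to 46.9 and 38.9 to 43.2), with none called in either list. Hepatocyte markers (5 of 7 tested, Apoa1 near background throughout) had sums of 239 to 396 in controls and 231 to 275 with tacrolimus, most of it from Cyp2e1. Their mean log2 level relative to the control mean ran from -0.38 to 0.81 in controls and from 0.18 to 1.40 with tacrolimus. This mean takes in Fgb, which differed by 3.29 and was well above background on 1 control array and 3 tacrolimus arrays. The other tested hepatocyte markers differed by -0.21 to 0.38. Adrenal cortex markers (3 of 6 tested, Cyp11a1 and Cyp11b2 near background throughout) had sums of 0.22 to 0.28 and 0.18 to 0.23. Neither list had a called gene.

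The genes whose pattern over the 8 arrays was most like that of Igfbp6, among 15608 tested genes with a symbol, were Rspo1 (Pearson r = 0.985), Cpxm2 (0.949) and Atp23 (0.945). Rspo1 encodes R-spondin 1, a secreted enhancer of Wnt signalling. It read -5.82, -4.07, -4.57 and -5.60 in controls and -2.59, -3.51, -1.76 and -4.11 with tacrolimus, so the order of the 8 arrays was that of Igfbp6. Without the 2 arrays farthest from the median of Igfbp6, its r was 0.965. The difference of Rspo1 was 2.02, that of Cpxm2, a member of the carboxypeptidase family, 2.13, and that of Atp23 0.41, all 3 short of the threshold (limma, adjusted p = 0.166, 0.161 and 0.299). Rspo1 and Atp23 were well above background on all 8 arrays and Cpxm2 on 7. Cpxm2 read -5.87 on control replicate 3, below the lowest signal called well above background there, -5.84. The correlation coefficients include the difference between the groups and carry no test.

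The promoter of Igfbp6 was read from the RefSeq table of GRCm38.p6, which matched all 10 members with 14 windows from 250 bases before to 50 after a start. It lies at chr15:102143936-102144235 on the plus strand and is printed for the same reason, with 2 matches in capitals, to the core of NFAT sites, GGAAA, and to the TATA box, TATAAA, both on the other strand here. The window also holds 2 matches to CCAAT, which are not in capitals. NFAT is the transcription factor family that calcineurin activates.
Igfbp6 promoter: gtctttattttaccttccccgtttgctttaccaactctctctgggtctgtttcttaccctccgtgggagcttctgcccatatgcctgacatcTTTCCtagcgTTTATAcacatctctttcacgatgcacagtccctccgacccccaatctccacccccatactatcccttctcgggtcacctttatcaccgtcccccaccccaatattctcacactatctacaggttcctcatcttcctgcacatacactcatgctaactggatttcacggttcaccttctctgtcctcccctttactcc
GGAAA was in 61.3% of the 32851 windows of all genes when both strands were searched, and in 7 of the 14 windows of the members, and TATAAA in 13.6% and in 2 of 14. CAAAACA, the FOXO site of insulin response elements, was in 6.28% of all windows and in 1 of 14, that of Igfbp1. Of the other motifs searched, GGGCGG was in 35.7% and 5 of 14, CCAAT in 37.4% and 3 of 14, AGAACA in 6233 windows and 2 of 14, and TGAGTCA in 5.2% and 1 of 14. A match says only that the letters are in the window.

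Igfbp1 encodes a binding protein whose transcription is known to be held down by insulin and raised by fasting. It read 0.39, 0.70, -0.019 and 1.85 in controls and 1.09, 1.38, 1.57 and 0.59 with tacrolimus. Control replicate 4 was the highest of all 8 arrays, and 3 tacrolimus arrays were above the other 3 controls. The difference was 0.43 ± 0.39 (SE, n = 4 per group; 95% interval -0.47 to 1.32; limma, adjusted p = 0.612), with a spread within groups larger than that of 94.1% of genes. It was 0.80 without control replicate 4 and 0.18 without control replicate 3, and not called in either case.

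Igfbp2, which encodes a binding protein that prefers IGF2, has 2 probes. At the brighter probe, A_55_P2056729, the control arrays read -3.82, -4.84, -4.73 and -4.69 and the tacrolimus arrays -4.44, -3.75, -4.48 and -3.56. Control replicate 1 stood with the tacrolimus arrays, and the difference of 0.46 ± 0.29 (SE, n = 4 per group; 95% interval -0.20 to 1.12) was not called (limma, adjusted p = 0.458). It was 0.69 without that array, 0.30 without tacrolimus replicate 4, and 1.20 as the mean of both probes (limma, unadjusted p = 0.0447, adjusted p = 0.320), called in none of these. The other probe, A_66_P135391, was well above background on 1 control array and all 4 tacrolimus arrays, and read -4.39, -6.96, -7.94 and -5.89 in controls and -4.57, -3.71, -5.59 and -3.58 with tacrolimus. Its fitted difference of 1.93 ± 0.76 (limma, adjusted p = 0.311 over all probes) includes 3 control values not well above background, and was 0.49 with the normexp background correction (adjusted p = 0.193). Neither probe separated the groups.

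Of the binding proteins, Igfbp3, Igfbp4, Igfbp5 and Igfbp7 had the smallest differences at their brightest probes. Igfbp3, the main carrier of IGF1 in blood, read 2.45, 2.95, 2.82 and 2.70 in controls and 2.51, 2.78, 2.67 and 2.94 with tacrolimus, a difference of -0.0068 (95% interval -0.32 to 0.31; limma, adjusted p = 0.988). Its sign turned with quantile normalization and with the deposited value table, as did that of Igfbp4. The other Igfbp3 probe, A_55_P1992715, had a difference of -0.25 with overlapping groups (limma, adjusted p = 0.433 over all probes). Igfbp4, known mainly as an inhibitor of IGF action and as the substrate of the protease PAPP-A, differed by -0.034 (95% interval -0.34 to 0.27), with array values from 2.81 to 3.08 in controls and from 2.60 to 3.16 with tacrolimus. Igfbp5, a binding protein that also attaches to extracellular matrix, read 4.27, 4.04, 4.27 and 4.27 in controls and 3.94, 4.38, 4.21 and 3.87 with tacrolimus. Control replicate 2 stood apart in that group, and the difference was -0.11 (95% interval -0.41 to 0.19; limma, adjusted p = 0.709). Igfbp7, whose product binds IGF weakly and is known from urine as a marker of tubular stress, ran from 1.32 to 1.57 in controls and from 1.33 to 1.72 with tacrolimus, a difference of 0.064 (95% interval -0.18 to 0.31; limma, adjusted p = 0.804).

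**Figure D3:**
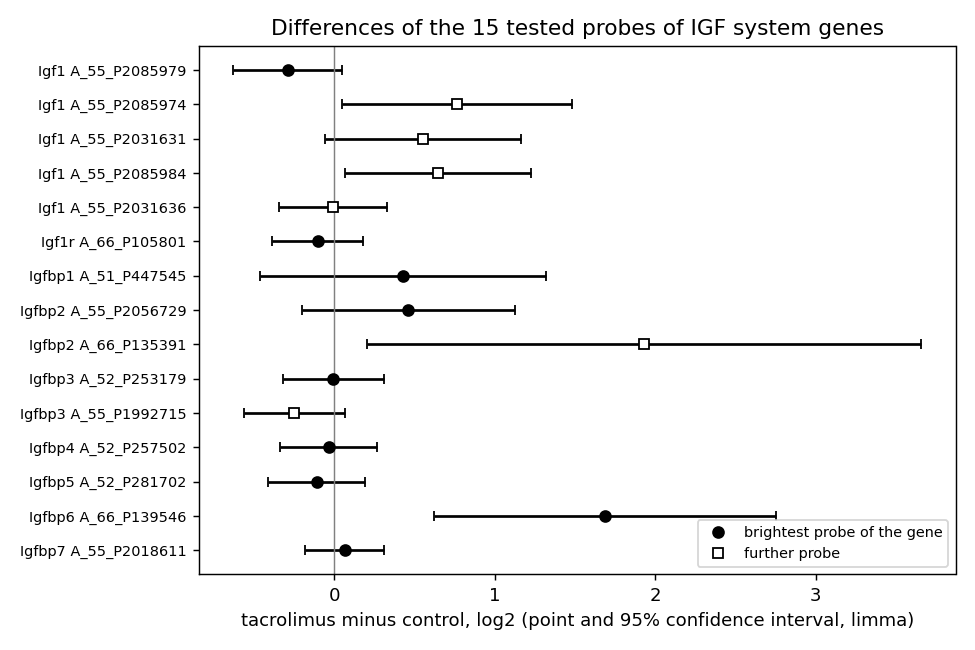
Difference between the tacrolimus and control means (log2) with its 95% confidence interval from limma for the 15 tested probes of the IGF system, the brightest probe of each gene filled and further probes open. The intervals of Igfbp6, of Igf1 probes A_55_P2085974 and A_55_P2085984 and of Igfbp2 probe A_66_P135391 leave out 0 before adjustment, and none of these was called after it.

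Igfbp2 and Igfbp5 are neighbouring protein-coding genes on chromosome 1, as are Igfbp1 and Igfbp3 on chromosome 11, in the RefSeq annotation of GRCm38.p6. The differences within these pairs were 0.46 and -0.11, and 0.43 and -0.0068. None of these differences was called, and the differences between neighbours were not tested.

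For the other members, and for the Igf1 probes with positive differences, the most similar genes over the 8 arrays were found in the same way. They included Myoz3 and Grm2 for the brightest Igf1 probe (Pearson r = 0.997 for each), Dnah12, Ormdl3 and Sort1 for Igf1 A_55_P2085974, Plxdc1, Irx5 and Dnah12 for A_55_P2031631, and Dnah12, Plxdc1 and Irx5 for A_55_P2085984 (0.965 to 0.989 for these 9). Dnah12, which encodes a dynein chain of cilia, came up at all 3 Igf1 probes with positive differences. Those probes correlated with each other between 0.986 and 0.990, so this is not an independent repetition. Dnah12 was well above background on 7 of the 8 arrays, and its own difference was 0.93 ± 0.30 (SE, n = 4 per group; limma, adjusted p = 0.218). Zmat3, Helz and Pnpla2 were nearest to Igf1r, Klk8, Efcab5 and Zfp383 to Igfbp1, Mapre2, Ssbp3 and Ffar2 to Igfbp2, Zfp277, Med6 and Edil3 to Igfbp3, Ugt1a6b, Yipf1 and Strada to Igfbp4, Adm2, Srrm4 and Tcl1b2 to Igfbp5, and Zfp12, Cask and Smc5 to Igfbp7, with r from 0.916 to 0.977. Igfbp5 and Adm2, the gene of the peptide adrenomedullin 2, were both low on control replicate 2 and tacrolimus replicates 1 and 4, where Adm2 read -3.16, -3.65 and -3.76 against -1.27 to -0.22 on the other 5 arrays. The further probes of a gene were added to this list after the data were seen.

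Of 47 other genes of the pathway, in 5 lists, 45 were tested and 1 was called, with a median difference of -0.082 beside -0.054 over all genes. At the brightest probe of each gene, the groups did not overlap for 2 of the 45 with tacrolimus higher (Stc2 and Socs3). For 3 they did not overlap with tacrolimus lower (Stc1, Igfals and Gsk3b, the last at this probe only). Over all genes the share without overlap was 10.1%, close to that of these lists. Among the partners and proteases of the binding proteins, 1 of 7 tested genes was called. It was Stc1, whose product stanniocalcin 1 is known to inhibit PAPP-A, with a control mean of -5.27 and a tacrolimus mean of -7.50. Its probe passed the filter through the 4 control arrays alone and fell short of the background call on all 4 tacrolimus arrays. The test thus set control signal against values not well above background. The level of Stc1 with tacrolimus has only a bound, at least 1.81-fold lower, which carries no test. The bound sets the control mean against the lowest signal well above background on each tacrolimus array. The call was lost in 10 of 18 alternative settings, among them leaving out control replicate 2, 3 or 4 or tacrolimus replicate 1 or 2 (adjusted p from 0.0206 to 0.329 over the 18). The fitted difference was -2.23, and it was -0.33 with the normexp background correction (limma, adjusted p = 0.329) and -0.67 with the deposited value table (limma, adjusted p = 0.0437), both smaller in size than the bound.

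Stc2, the relative of Stc1 that inhibits the same protease, read -2.23, -1.84, -2.36 and -2.23 in controls and -1.81, -0.46, -1.49 and -1.26 with tacrolimus. All 4 tacrolimus arrays were above every control array, although tacrolimus replicate 1 and control replicate 2 nearly met. In either direction, groups failed to overlap for 10.1% of all genes. The Stc2 difference of 0.91 ± 0.27 (SE, n = 4 per group) was not called (limma, adjusted p = 0.187). Igfals encodes the acid-labile subunit that joins IGF and its main binding protein in a larger blood complex, and all 4 tacrolimus arrays were below every control array, with a difference of -0.33 ± 0.10 that was not called (limma, adjusted p = 0.211). The proteases Pappa, Pappa2, Htra1 and Htra3 had differences of -0.20, -0.70, -0.15 and 0.089, with overlapping groups in each, and Igfbpl1 was not tested.

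None of the 8 genes of the growth hormone axis, which drives Igf1 transcription in liver, was called, and their median difference was 0.015. Socs3, an inhibitor of cytokine receptor signalling, read -0.43, -0.14, -0.85 and -0.83 in controls and 0.57, 1.03, 0.16 and 0.27 with tacrolimus. The groups did not overlap, as for 10.1% of all genes. The difference of 1.07 ± 0.23 (SE, n = 4 per group) was not called (limma, adjusted p = 0.0935). The related Socs1 and Socs2 differed by 0.37 and -0.50 (limma, adjusted p = 0.382 and 0.474), and the growth hormone receptor gene Ghr by -0.14 with overlapping groups.

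Among 24 genes of receptor adaptors and intracellular signalling none was called, 9 differences were positive and 15 negative, and the median was -0.080. The lowest unadjusted p belonged to Irs4, an insulin receptor substrate (-0.29), Pik3cb, a catalytic PI3K subunit (-0.20), and Gsk3b, a kinase inhibited by AKT (-0.17), with adjusted p of 0.290, 0.325 and 0.347 (limma). Further Gsk3b probes differed by -0.21 and 0.037 with overlapping groups (limma, adjusted p = 0.419 and 0.884 over all probes). Akt1 and Akt2 differed by -0.078 and -0.16. Of the mRNA-binding proteins named for Igf2, Igf2bp2 differed by 0.037 and Igf2bp1 by -0.97 with a standard error of 0.95 (limma, adjusted p = 0.929 and 0.640), and Igf2bp3 was not tested.

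**Figure D4:**
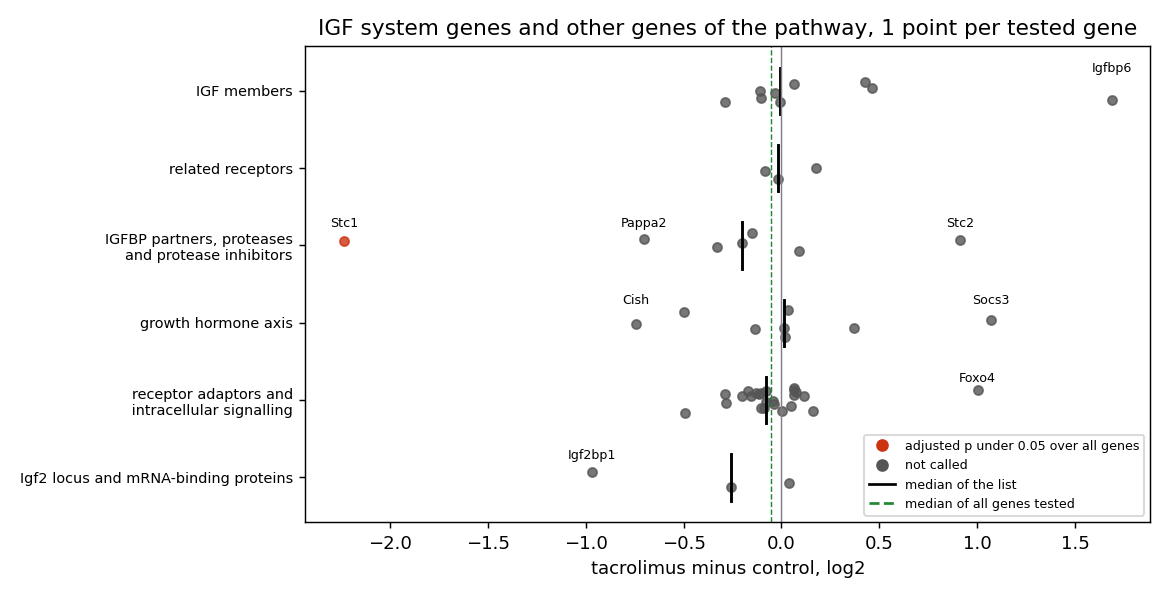
Difference between the tacrolimus and control means (log2) for each tested gene of the IGF system and of 5 lists of other pathway genes, with the median of each list as a black bar and that of all genes, -0.054, as a dashed line. The only called gene, in red, is Stc1, drawn at its fitted difference of -2.23 although its tacrolimus level is below background; genes beyond 0.6 are named.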

How the data were processed

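Per the file headers, the scanner images were read by Feature Extraction 10.7.3.1, which reports for each spot a raw intensity, a local background intensity and a processed intensity with background removed. Each column of the deposited log2 value table matched, within 5e-09, the raw median intensity after quantile normalization, with no background removed and no centring of genes. The submitters' processing notes list limma without settings.

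The processed intensity was scaled to the 75th percentile of each array over 59305 non-control spots, outlier spots were left out and spots of a probe averaged. The comparison used limma (version 3.58.1, R 4.3.3), two-sided and with no further terms, and single values were tested also with an exact permutation test over 70 assignments. In simulated arrays with 25127 genes, of which 100 changed by 1 and 100 by 2, the fit recovered 70 and 95, with 7 of 172 calls on unchanged genes. The replicate numbers were not taken as pairs.

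Members, lists and markers were chosen with earlier results of these data known. Named were all members, in each pathway list the called genes and up to 3 with the lowest unadjusted p, and the 3 genes most like each member; a few genes so chosen are left unreported, though counts hold them. Other genes named (Pappa, Pappa2, Htra1, Htra3, Ghr, Akt1, Akt2, Adm2, Dnah12 and the markers) were chosen for their role or after their values were seen. Alternatives were quantile and median scaling, normexp (offset 50), the deposited table, other filters, the mean of probes, array weights, trended and robust variances, the replicate block and left-out arrays.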

Additional observations from a re-analysis of the deposited data

Results flagged for a closer look

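Of 62 groups of 4 arrays examined, for the probes of the members and for the named pathway genes, 5 had 1 array whose gap to the nearest other array as a share of the range of the group exceeded Dixon's 95% critical value for 4 samples. Chance alone gives about 1 in 20. At the brightest Igf1 probe, tacrolimus replicate 4 read 0.21 and the other 3 arrays of its group 0.71 to 0.78. At Igf1 probe A_55_P2031636, tacrolimus replicate 3 read -4.65 and the others -4.22 to -4.16. At the brighter Igfbp2 probe, control replicate 1 read -3.82 and the others -4.84 to -4.69. For Igfbp5, control replicate 2 read 4.04 while the others were all at 4.27. For the insulin receptor gene Insr, tacrolimus replicate 4 read 0.38 and the others 0.062 to 0.11.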

How the results depend on the processing

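No member was called under any of the 19 alternatives. The count of all genes called was 57 and became 286 with normexp, 181 with the deposited table, 32 without a filter, 151 with a filter on all 8 arrays, 221 with trend and robust estimation, 309 with array weights, 103 with the replicate block and 8 without control replicate 2 and tacrolimus replicate 4 together. Leaving out single arrays gave 7 (without control replicate 2) to 56. The count of probes, 37, became 306 with normexp, 162 with the deposited table, 115 with the filter on all 8 arrays, 222 with trend and robust estimation, 247 with array weights, 9 without both arrays and 6 to 52 without single arrays. The count of other pathway genes, 1, became 0 with the filter on all 8 arrays, under which Stc1 was not tested. It also became 0 with quantile normalization, normexp, no filter and without both arrays, and was 0 to 1 without single arrays. With the replicate number as a block it was 1, with Socs3 called in the growth hormone list (1; limma, adjusted p = 0.0323) and Stc1 not in the list of partners and proteases (0; 0.0676). Deviations of same-numbered arrays correlated between 0.021 and 0.16, over 0.1 in 2 of 4 pairs, and 7 of 8 arrays correlated best with their own number, which is a hint from the data and not from the design.

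The Igf1 difference turned from -0.29 to 0.33 with the mean of its probes, which takes in the probes with positive differences. Signs turned for small differences: Igfbp3 0.038 with quantile normalization and 0.013 with the deposited table (-0.10 to 0.068 without 1 or both arrays), Igfbp4 0.025 and 0.027 (-0.11 to 0.077), Igf2r 0.042 and 0.057 (-0.15 to 0.12), Igf2bp2 -0.014 with median scaling and -0.021 with the deposited table (-0.078 to 0.12), Igf1 probe A_55_P2031636 0.037 with normexp and 0.041 with array weights (-0.077 to 0.10), and Igfbp7 -0.0074 to 0.13 without 1 or both arrays. The causes of the turns at small differences were not tested. Signal over background limits Igf2, the dimmer Igfbp2 probe and Stc1.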
